A study of Homo sapiens with 6 samples.

Results

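The genes described here are the protein-coding genes that write, erase or read N6-methyladenosine (m6A) in RNA and the RNA-binding proteins that splice pre-mRNA, measured by RNA sequencing of ARPE-19 cells. They were chosen by gene symbol from the deposited gene table: symbols beginning with METTL, YTHD, IGF2BP, ALKBH, RBM and a digit, HNRNP, SRSF, SF3, PRPF, U2AF, ELAVL, CELF or MBNL, and the single genes WTAP, VIRMA, ZC3H13, CBLL1, FTO, PCIF1, ESRP1, ESRP2, QKI, PTBP1, PTBP2 and RBFOX2. This gave 67 members of the 7758 genes in the table. Of these, 14 belong to the m6A machinery (8 writers, 1 eraser and 5 readers), 45 are splicing RNA-binding proteins, and 8 are METTL or ALKBH genes with other known or presumed substrates.

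ARPE-19 is an established human retinal pigment epithelium cell line. Both groups carried a lentiviral short hairpin RNA, against METTL3 in the METTL3-silenced cells (sh-METTL3) and a negative control hairpin in the control cells (sh-Control), and both had been given lipopolysaccharide (LPS) at 1 μg/ml for 24 h. Each group had 3 libraries, made from lines selected with puromycin, and whether the 3 came from separate cultures is not given in the sources used here, so the p-values below measure the spread between these libraries, which may be technical. Cells without LPS were not analysed here, and the comparison therefore concerns silencing of METTL3 under LPS.

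In the m6A pathway, a nuclear complex methylates adenosines in mRNA. METTL3 is its catalytic subunit, METTL14 is its RNA-binding partner, and WTAP, VIRMA, CBLL1, RBM15 and RBM15B place the complex on its targets. FTO and ALKBH5 remove the mark, and proteins of the YTH and IGF2BP families bind methylated RNA and alter its splicing, translation or decay. Splicing is carried out by the spliceosome, whose SF3 and U2AF proteins recognise the branch site and the 3′ splice site. SR proteins (SRSF) mostly promote, and heterogeneous nuclear ribonucleoproteins (HNRNP) often repress, the use of nearby exons.

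Each value is a scaled count, the number of reads on a gene divided by 1 size factor for its library. The reads on the listed genes numbered 10898434 to 17750052 per library. The table was preselected by the authors at an adjusted p-value of 0.05 and holds 33.8% of the 22977 genes they tested, so a member is in it because it differed between these same libraries. A log2 fold change here is the difference in mean log2(scaled count + 1), METTL3-silenced minus control, and understates the change of weakly expressed genes. It was tested with limma and adjusted over 22977 tests, and the counts below say how many listed genes also passed that test. The libraries of a group differed by more than sampling noise (chi-square per degree of freedom of 3.89 to 17.6), and sh-METTL3 replicate 3 stood apart from the others on the second principal component, with 3.36% of the variance. It gave the lowest value of its group for 34 of the 67 members (50.7%), against 38.9% of all listed genes.

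Fixed lists of cell type markers were read from the table. It holds only genes that differed between the groups, so a marker expressed equally in both is absent. The listed markers therefore cannot check the label of the cells. Of 15 RPE markers, 8 were listed, among them PMEL, BEST1, LRAT, MITF, KRT8 and KRT18. Of the 8, 5 were higher and 3 lower in the METTL3-silenced cells, and their summed scaled count was 18879.8 to 20159.9 in the control cells and 30209.5 to 33528 in the METTL3-silenced cells. Most of this sum was keratin: KRT8 rose from a control mean of 10761 to 22324 (1.05 on the log2 scale, limma adjusted p = 1.22e-06), and KRT18 rose by less (0.41, limma adjusted p = 0.000267). The 3 lower markers were SERPINF1, which encodes the secreted factor PEDF, with a mean of 1404 against 170.1 (−3.04, limma adjusted p = 9.18e-09), PMEL (−1.80, limma adjusted p = 1.94e-06) and BEST1 (−1.73, limma adjusted p = 0.000873). Of 10 mesenchymal markers, 5 were listed, with a summed scaled count of 12922 to 14994 in the control cells and 6692 to 8702 in the METTL3-silenced cells. Of these 5, 4 were lower, with COL1A1 making most of the fall (−2.00, limma adjusted p = 1.91e-07), and TAGLN was higher (0.64, limma adjusted p = 0.0173). The 3 listed of 10 immune cell markers summed to 157 to 211 in any library but moved in opposite directions, CD14 (−3.71, limma adjusted p = 0.00022) and ITGAM (−3.07, limma adjusted p = 4.92e-05) being lower and CSF1R (0.98, limma adjusted p = 0.00109) higher. SYP was the 1 listed of 9 neuronal markers. The part of these marker differences in the values of the members was not tested.

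Among the genes that the symbols select in GENCODE release 29, the table listed 67 of 170 (39.4%), against 33.8% of all 19922 protein-coding genes. For the m6A machinery it listed 14 of 22 genes (63.6%), and for the splicing proteins 45 of 120 (37.5%). A gene is listed only if the authors called it, which is easier for strongly expressed genes. These shares were not matched for expression level and were not tested. METTL4, METTL5, RBM15, ZC3H13, FTO, IGF2BP1, YTHDC2 and YTHDF1 were not analysed here. The SRSF family was listed for 11 of its 12 genes and the SF3, PRPF and U2AF genes for 16 of 26. In contrast, the table held 6 of 27 HNRNP genes and 7 of 36 other RBM genes. No ELAVL gene was among the members, nor were QKI, ESRP1, PTBP2 and RBFOX2.

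With the deposited scaling, most members were lower in the METTL3-silenced cells, and by small amounts. Of the 67 members, 65 passed the test (97.9% of all listed genes did), 48 of them lower (71.6% of members, against 51.3% of all listed genes) and 17 higher (46.6% of all listed genes). For 66 members the control and METTL3-silenced libraries did not overlap (98.5% of all listed genes), the exception being METTL1. The median log2 fold change was −0.28 over the members and −0.21 over all listed genes. The median size of the change was smaller in the members, at 0.35 against 0.62, and a log2 change of at least 1 in size was found for 7 members (10.4%) and 30.7% of all listed genes. Members were also more strongly expressed, with a median of 1529 against 582 for the mean scaled count over the 6 libraries. In bulk RNA, fewer cells of a type and less RNA of a gene per cell cannot be told apart.

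The share of lower members depended on the scaling of the libraries. When the recovered reads were rescaled with relative log expression (RLE) factors in edgeR, the median of all listed genes moved up by 0.12 on the log2 scale. Then 41 members passed, 23 lower (34.3% of members, against 37.0% of all listed genes) and 18 higher (26.9% of members, against 47.7%). With RLE factors the members were thus called lower at a share near that of the table, whereas other rescalings moved the calls less. With trimmed mean of M-values (TMM) factors in edgeR 39 members were lower (58.2%, against 47.1% of all listed genes), and with scaling to listed-gene totals 41 were (61.2%, against 46.7%). Among called genes alone, the lower share went from 73.8% to 56.1% in the members and from 52.4% to 43.7% in all listed genes. The shares over all listed genes with the deposited and the RLE scaling also stand against every class count below. Relative to the median of all listed genes, the members' median was −0.065 both with the deposited scaling and with RLE. With RLE factors 61.2% of members passed, against 84.7% of all listed genes. In all of the 18 alternative settings 29 members passed. A further 2 members (RBM20 and SRSF12) passed in the 17 that kept them, their mean being below the filter of 50. The share of all listed genes that passed in every setting was not computed. No called member changed sign under any alternative. Since the table holds called genes only, unchanged signs say little about the scaling. Each member's log2 fold change is shown with its standard error in the plot by class.

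**Figure D1:**
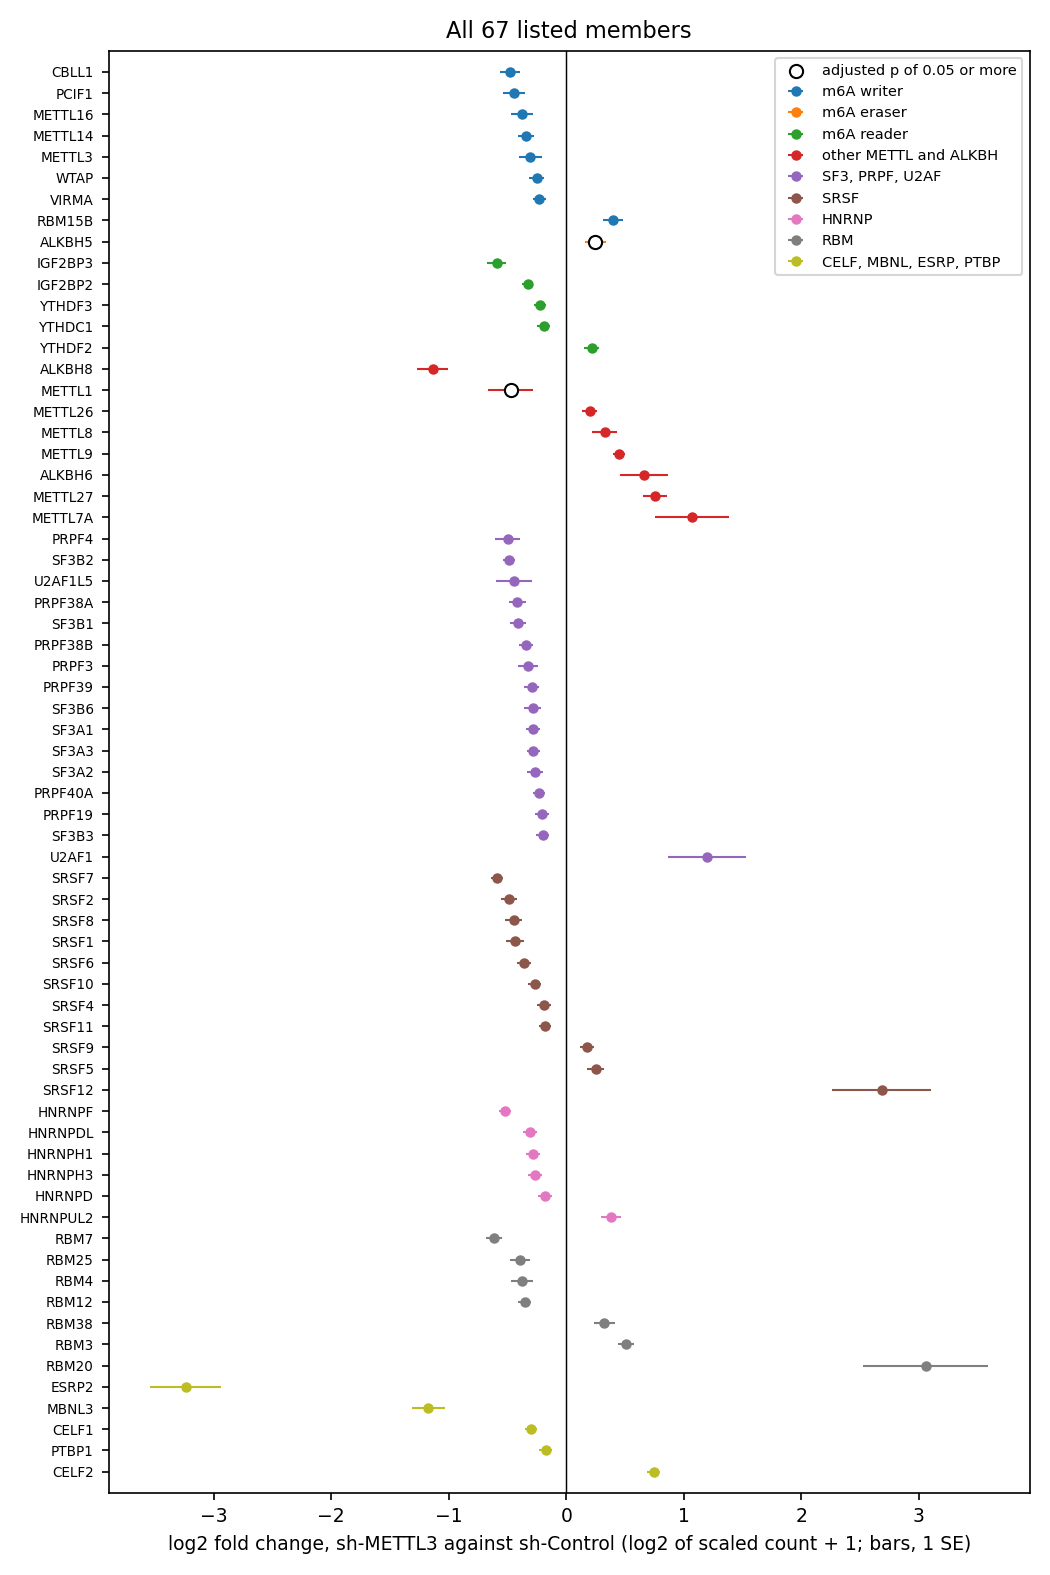
Log2 fold change of each of the 67 members in METTL3-silenced against control cells (x axis, log2 of the scaled count plus 1; bars are 1 standard error, n = 3 per group), coloured by class, with open circles for the 2 members that did not pass. Most points sit just left of 0, with a median of −0.28, while ESRP2 on the left and RBM20 and SRSF12 on the right lie far from the rest.

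The targeted gene was METTL3 (GRCh38 chr14:21498133-21511375, minus strand, ENSG00000165819), which had scaled counts of 1154, 1108 and 1091 in control replicates 1, 2 and 3 and of 966, 1001 and 765 in METTL3-silenced replicates 1, 2 and 3. Each METTL3-silenced library was below each control library, and replicate 3 was the lowest. The mean fell by 18.5% from 1118 ± 32.8 to 911 ± 128 (SD, n = 3), a log2 fold change of −0.30 (SE 0.0965, limma adjusted p = 0.032). This call did not pass in 7 of the 18 alternatives, among them RLE scaling (−0.17, edgeR adjusted p = 0.261) and the fit without any 1 of the control libraries (limma adjusted p of 0.0684 to 0.124). Leaving out sh-METTL3 replicate 3 gave −0.18 (limma adjusted p = 0.04). METTL3 shares 6.58% of its exonic bases with TOX4 on the opposite strand, and whether reads were counted by strand is not given in the sources used here.

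The gene table gives 1 value for all METTL3 transcripts together. The study measured METTL3 mRNA by PCR after LPS treatment. It followed silencing by western blot and m6A quantification, and reported lower METTL3 protein and m6A in silenced ARPE-19 cells. To show which part of the transcript the PCR reads, its primer pair is printed, found by matching to GENCODE 29 transcripts on GRCh38. Both lie in exon 2 of the 11 exons of ENST00000298717. They frame an amplicon of 145 bases and are both present in 9 of the 14 annotated METTL3 transcripts. The scaled count of the gene can therefore include annotated transcripts that this amplicon does not read. Whether those transcripts were expressed was not tested.
METTL3 forward primer, chr14:21503838-21503858: TTGTCTCCAACCTTCCGTAGT
METTL3 reverse primer, chr14:21503714-21503735: CCAGATCAGAGAGGTGGTGTAG

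Among the writers, 7 of 8 were lower and 1 was higher, and in no writer did the groups overlap. The writers' median log2 fold change was −0.32. With RLE scaling 3 were lower and 1 higher, the other 4 (METTL3, WTAP, VIRMA and METTL16) not passing.

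METTL14, the RNA-binding partner of METTL3, had scaled counts of 884, 837 and 896 in the control cells and 698, 674 and 693 in the METTL3-silenced cells. The METTL3-silenced libraries lay close together, all below the controls (−0.34, SE 0.065, limma adjusted p = 0.00219). CBLL1, an E3 ubiquitin ligase of the complex also called HAKAI, had 732, 723 and 670.2 in the control cells and 489, 482 and 557 in the METTL3-silenced cells (−0.48, limma adjusted p = 0.00127). Replicate 3 was here the highest METTL3-silenced library, unlike for METTL3. WTAP, the scaffold that anchors METTL3 and METTL14, had 2486, 2337 and 2560.2 against 2207, 2090.2 and 1911 (−0.25, limma adjusted p = 0.0123). WTAP shares 6.81% of its exonic bases with SOD2 on the opposite strand, and its call was lost in 4 alternatives, among them the fit without sh-Control replicate 3 (limma adjusted p = 0.0556). VIRMA, a large scaffold subunit, had 1682, 1740.0 and 1621 against 1470.3, 1427 and 1405, a small difference with no overlap (−0.23, limma adjusted p = 0.00807).

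RBM15B, an adaptor that brings the complex to RNA, went the other way. It had 1341, 1355 and 1244 in the control cells and 1536, 1710.1 and 1966 in the METTL3-silenced cells, where every library exceeded every control library and replicate 3 was the highest (0.40, SE 0.0861, limma adjusted p = 0.00459). This call passed in all 18 alternatives. A share of 20.0% of its exonic bases overlaps DCAF1 on the opposite strand.

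Of the writers that act outside the METTL3 complex, METTL16 methylates U6 small nuclear RNA and the MAT2A transcript. Its counts were 589.5, 569.8 and 566 in the control cells and 491, 399 and 445 in the METTL3-silenced cells (−0.37, limma adjusted p = 0.0085). PCIF1, which methylates the adenosine next to the mRNA cap, had 867, 992 and 1014 against 778, 709 and 629, with the lowest value in replicate 3 (−0.44, limma adjusted p = 0.00396). The groups were apart in both genes.

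The 1 listed eraser, ALKBH5, did not pass. Its scaled counts were 2039, 2169.5 and 2022 in the control cells and 2286, 2253 and 2914 in the METTL3-silenced cells, and replicate 3 stood well above the others. The log2 fold change was 0.25 (SE 0.0918, limma adjusted p = 0.0656). It passed with RLE scaling (0.38, edgeR adjusted p = 0.00685), and without sh-METTL3 replicate 3 it was 0.13 (limma adjusted p = 0.11).

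**Figure D2:**
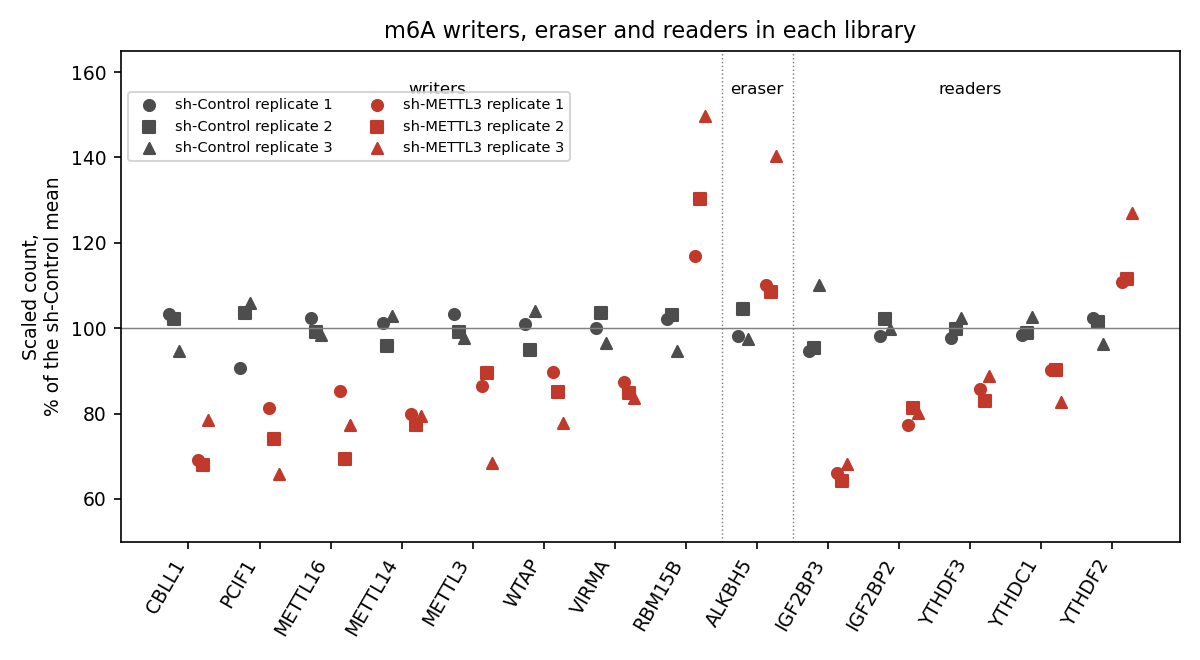
Scaled count of each of the 14 m6A genes in each of the 6 libraries, as a percentage of the mean of the 3 control libraries (y axis), with a marker shape per replicate number. In 11 of the 14 genes every METTL3-silenced library lies below the control mean, while RBM15B, ALKBH5 and YTHDF2 lie above it, with replicate 3 highest in these 3 genes.

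Of the 5 readers, 4 were lower and 1 was higher. IGF2BP3, an oncofetal protein that stabilises bound mRNAs, was the reader with the largest fall. Its scaled counts were 645, 649.5 and 751 in the control cells and 449.7, 438 and 465 in the METTL3-silenced cells, with a gap between the groups wider than either group's own spread (−0.59, SE 0.0844, limma adjusted p = 0.000349). A share of 17.9% of its exonic bases overlaps MALSU1. Its relative IGF2BP2 had 3006, 3125 and 3051 against 2369, 2489.7 and 2452 (−0.33, limma adjusted p = 0.000485), and both IGF2BP genes passed in all 18 alternatives.

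The YTH readers moved less and in both directions. YTHDF3, a cytoplasmic reader, had 3148, 3217 and 3301 against 2761, 2675 and 2862 (−0.22, limma adjusted p = 0.0064). YTHDC1, the nuclear reader that acts on splicing and export, had 2500.0, 2514 and 2609 against 2294, 2294 and 2099.5 (−0.19, limma adjusted p = 0.0218). YTHDF2, which leads methylated mRNA to decay, was higher, with 1631, 1616 and 1532 in the control cells and 1763, 1776 and 2023 in the METTL3-silenced cells (0.22, limma adjusted p = 0.0274). Replicate 3 was the highest library for YTHDF2, and without it the log2 fold change was 0.15 (limma adjusted p = 0.0581). The call of YTHDF2 was also lost without any 1 control library (limma adjusted p of 0.0576 to 0.11), as was that of YTHDC1 (0.0501 to 0.0866). With RLE scaling neither YTHDF3 (edgeR adjusted p = 0.339) nor YTHDC1 (edgeR adjusted p = 0.851) passed.

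Per kilobase of exon, the control cells expressed ALKBH5 (651 scaled counts per kb), IGF2BP2 (646) and YTHDF3 (523) most among the 14 listed m6A genes. METTL3 (189.6 per kb) and METTL14 (127 per kb) were in the lower part of the order, and IGF2BP3 (80.1 per kb) and METTL16 (64.4 per kb) closed it. The levels of ALKBH5 and IGF2BP2 differed by less than their spread over libraries.

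The spliceosome proteins named SF3, PRPF and U2AF were nearly all lower with the deposited scaling. Of the 16 listed genes, 15 were lower (93.8%, against 51.3% of all listed genes) and 1 was higher, with log2 fold changes of −0.50 to −0.20 among the lower genes and a class median of −0.29. The RLE scaling left 5 of the 15 lower, 31.2% of the class against 37.0% of all listed genes, while TMM factors left 12 and listed-gene totals 13. All 15 kept a negative log2 fold change with each of these scalings. A rescaling moves all genes by a similar amount, here smaller than any of the 15 falls. The kept signs therefore say little. SF3B1, a branch-site protein recurrently mutated in myelodysplasia, was the most strongly expressed of these 16 genes per length, at 1449 scaled counts per kb in the control cells. It had 12637, 13243 and 13945 in the control cells and 10596, 10411 and 9027 in the METTL3-silenced cells (−0.41, limma adjusted p = 0.0013), all 3 METTL3-silenced libraries lying below the controls. PRPF4, a protein of the U4/U6 small nuclear ribonucleoprotein, had 777, 726 and 783 against 547, 459 and 626 (−0.50, limma adjusted p = 0.00447). For SF3B2, a partner of SF3B1, the values were 6566, 6742 and 6521 against 4903, 4697 and 4563 (−0.49, limma adjusted p = 3.98e-05), and both genes passed in all 18 alternatives. The SF3A proteins, which join SF3B in the U2 particle, were lower by near-equal amounts, at −0.29 for SF3A1, −0.26 for SF3A2 and −0.28 for SF3A3, and none of the 3 passed with RLE scaling, nor did SF3A2 without sh-Control replicate 1 or 2 (limma adjusted p up to 0.0701).

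U2AF1, which recognises the 3′ splice site, was the single higher gene of the class. Its scaled counts were 128, 158 and 144 in the control cells and 172, 539 and 382 in the METTL3-silenced cells, where replicate 1 was barely above the controls and replicates 2 and 3 were far above them (1.20, SE 0.33, limma adjusted p = 0.0162). Without sh-METTL3 replicate 2 the difference was 0.84 (limma adjusted p = 0.0586) and without sh-Control replicate 1 it was 1.12 (limma adjusted p = 0.0726), neither passing. GRCh38 carries a near-identical copy on the same chromosome, U2AF1L5 (chr21:6484623-6499261), beside U2AF1 (chr21:43092956-43107587). A pair of their annotated transcripts is identical in 1018 of 1019 bases, so the division of reads between the genes depends on how reads with more than 1 match were counted, which is not given in the sources used here.

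U2AF1L5 had 175, 162 and 218 in the control cells and 139, 147 and 119.8 in the METTL3-silenced cells (−0.44, limma adjusted p = 0.0478), and this call was lost in 15 alternatives. Summed, the genes had 303, 320.0 and 362 in the control cells and 311, 686 and 502 in the METTL3-silenced cells. The sum of METTL3-silenced replicate 1 lay inside the control range. U2AF1 took 39.8% to 49.3% of the sum in the control libraries and 55.3%, 78.6% and 76.1% in METTL3-silenced replicates 1, 2 and 3. The individual values of both genes are therefore uncertain.

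Of the 11 listed SRSF genes, 8 were lower and 3 higher, and with RLE scaling 5 were lower and 3 higher. SRSF7, an SR protein that also promotes mRNA export, had 2472, 2557 and 2543 in the control cells and 1691, 1724 and 1615 in the METTL3-silenced cells (−0.59, SE 0.0519, limma adjusted p = 1.4e-05). The gap between the groups was several times the range within either. SRSF2, a regulator of exon inclusion, had 2034, 1966 and 2055 against 1528, 1496 and 1302 (−0.49, limma adjusted p = 0.000316), and MFSD11 on the opposite strand overlaps 36.7% of its exonic bases. SRSF1 (−0.43), SRSF8 (−0.45), SRSF6 (−0.36) and SRSF10 (−0.27) were also lower, as were SRSF4 (−0.19) and SRSF11 (−0.18). SRSF1 shares 56.6% of its exonic bases with the protein-coding gene AC015813.2 on the same strand. The calls of SRSF4 and SRSF11 were lost in 11 and 9 of the 18 alternatives.

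Among the higher SRSF genes, SRSF5 had 6408, 6170.4 and 6437 in the control cells and 7862, 8156 and 6689 in the METTL3-silenced cells (0.25, limma adjusted p = 0.0211), where replicate 3 was nearest to the controls. SRSF9 had 2038, 2238 and 2036 against 2345, 2492 and 2304 (0.18, limma adjusted p = 0.0399), groups that barely stay apart, and 46.2% of its exonic bases overlap GATC. Leaving out 1 library ended the call of SRSF5 for every library but sh-METTL3 replicate 3, and that of SRSF9 for every library but sh-Control replicate 2 and sh-METTL3 replicate 3, with limma adjusted p-values up to 0.103 and 0.177. SRSF12, a weakly expressed member, had 9, 2 and 3 reads in the control libraries and 31, 18 and 29 reads in the METTL3-silenced libraries. The ratio of its scaled reads was 6.84 (95% exact interval 3.84 to 13.1, for counting error only). Its log2 fold change was 2.69 (limma adjusted p = 0.000652).

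The 6 listed HNRNP genes were 5 lower and 1 higher. HNRNPF, which binds G-rich RNA, had 5232, 5148 and 4936 in the control cells and 3649.7, 3463 and 3567 in the METTL3-silenced cells (−0.52, SE 0.0498, limma adjusted p = 2.42e-05), with tight and well separated groups. HNRNPDL had 8917, 9259 and 9721 against 7915, 7599 and 7013 (−0.31, limma adjusted p = 0.00267), and it was the most strongly expressed HNRNP gene listed, at 1698 scaled counts per kb in the control cells. HNRNPH1 (−0.28), HNRNPH3 (−0.26) and HNRNPD (−0.18) were lower too, but of the 5 only HNRNPF passed with RLE scaling. The call of HNRNPD was lost in 13 of the 18 alternatives, and those of HNRNPH1 and HNRNPH3 with RLE scaling alone. HNRNPUL2 was higher, with 815, 788 and 985 against 1102, 1153 and 1101 (0.38, limma adjusted p = 0.00578), and the readthrough gene HNRNPUL2-BSCL2 shares 44.1% of its exonic bases.

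Among the 7 listed RBM genes outside the writer complex, 4 were lower and 3 higher. RBM7, a subunit of the complex that brings nuclear RNA to the exosome, had 1054, 1048 and 1084 in the control cells and 710.0, 723 and 653 in the METTL3-silenced cells (−0.61, limma adjusted p = 5.74e-05). RBM25, a splicing regulator, had 6136, 6050.3 and 6668 against 5102, 5159 and 4146, lowest in replicate 3 (−0.39, limma adjusted p = 0.0041). The groups were apart in both. RBM3, the cold-inducible RNA-binding protein, was higher, with 3066, 3054 and 3202 in the control cells and 4815, 4424 and 4041 in the METTL3-silenced cells (0.51, SE 0.0661, limma adjusted p = 0.000195). RBM38, a p53 target that binds the CDKN1A transcript, had 310.3, 337 and 318 against 405, 383 and 423 (0.33, limma adjusted p = 0.017), and did not pass without sh-Control replicate 1 or 3 (limma adjusted p of 0.0657 and 0.0512).

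RBM20, a splicing repressor known from cardiac titin, was near the detection limit. It had 0, 2 and 0 reads in the control libraries and 12, 10 and 8 reads in the METTL3-silenced libraries. The ratio of scaled reads was 18.4 (95% exact interval 4.67 to 159, for counting error only), so its size is poorly fixed although the groups did not overlap (limma adjusted p = 0.00124).

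Of the 5 listed CELF, MBNL, ESRP and PTBP genes, regulators of tissue-specific splicing, 4 were lower and 1 was higher. ESRP2, an epithelial splicing regulator with the largest fall of the 67 members, had 159, 182 and 140.2 in the control cells and 9.33, 19.3 and 22.4 in the METTL3-silenced cells. The METTL3-silenced mean was 10.6% of the control mean (−3.24, SE 0.301, limma adjusted p = 1.98e-05), and the call passed in all 18 alternatives. MBNL3, a muscleblind-like protein, had 180.3, 196 and 210.3 against 94.2, 82.5 and 81.7 (−1.17, limma adjusted p = 0.000111), with no library of one group near the other. CELF2, which often opposes muscleblind proteins on shared exons, rose from 1733, 1812 and 1760.1 in the control cells to 2857, 2979 and 3047 in the METTL3-silenced cells (0.74, SE 0.0516, limma adjusted p = 3.05e-06). Its relative CELF1 was lower, with 3305, 3358 and 3469.7 against 2863, 2665 and 2718 (−0.30, limma adjusted p = 0.00122). PTBP1, a repressor of neuronal exons, had 7443, 7465 and 7144 against 6845, 6549 and 6141 (−0.18, limma adjusted p = 0.0314) and its call was lost in 10 of the 18 alternatives, RLE scaling among them. RPE and mesenchymal markers moved over the same libraries, as given above.

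**Figure D3:**
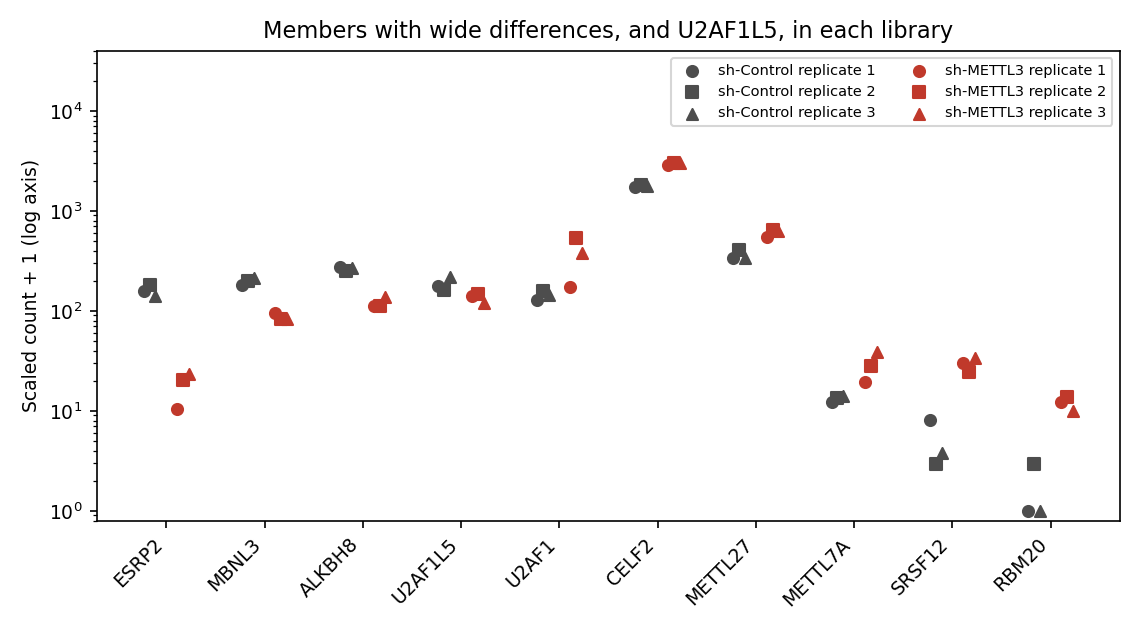
Scaled count plus 1 (log y axis) of 9 members with wide differences, and of U2AF1L5, in each of the 6 libraries. ESRP2, MBNL3 and ALKBH8 are lower and CELF2, METTL27, METTL7A, SRSF12 and RBM20 higher in each METTL3-silenced library than in any control library, whereas U2AF1 of sh-METTL3 replicate 1 lies close to the controls.

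The 8 METTL and ALKBH genes outside the m6A pathway were mostly higher. Of these, 6 of 8 were higher (46.6% of all listed genes were), 1 was lower and METTL1 did not pass. With RLE scaling 6 of 8 were higher, against 47.7% of all listed genes. METTL9, a histidine methyltransferase, had 1553, 1552 and 1517 in the control cells and 2024, 2111 and 2172 in the METTL3-silenced cells (0.45, SE 0.0528, limma adjusted p = 9.9e-05), and METTL27 had 335, 406 and 338 against 552, 640.5 and 626 (0.75, limma adjusted p = 0.000267). In both genes the groups were far apart. METTL7A, at a low level, had 11.2, 12.5 and 13.1 against 18.7, 27.1 and 38.1 (1.07, limma adjusted p = 0.0222), and did not pass without sh-Control replicate 1 or 2 or sh-METTL3 replicate 2 or 3 (limma adjusted p of 0.0605 to 0.0826). METTL26 (0.20), METTL8 (0.33) and ALKBH6 (0.66) were higher as well. Of the 6 fits without 1 library, 3 did not pass for METTL26, 4 for METTL8 and 5 for ALKBH6 (limma adjusted p up to 0.124, 0.134 and 0.122).

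ALKBH8, a transfer RNA modifying enzyme, was the 1 lower gene of this class, with 272, 247 and 268 in the control cells and 110.1, 112 and 135 in the METTL3-silenced cells (−1.14, limma adjusted p = 8.58e-05). METTL1, which makes 7-methylguanosine in transfer RNA, had 200.2, 212 and 127 against 129, 125 and 125. Control replicate 3 lay among the METTL3-silenced libraries, and the difference of −0.47 did not pass (limma adjusted p = 0.0987).

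**Figure D4:**
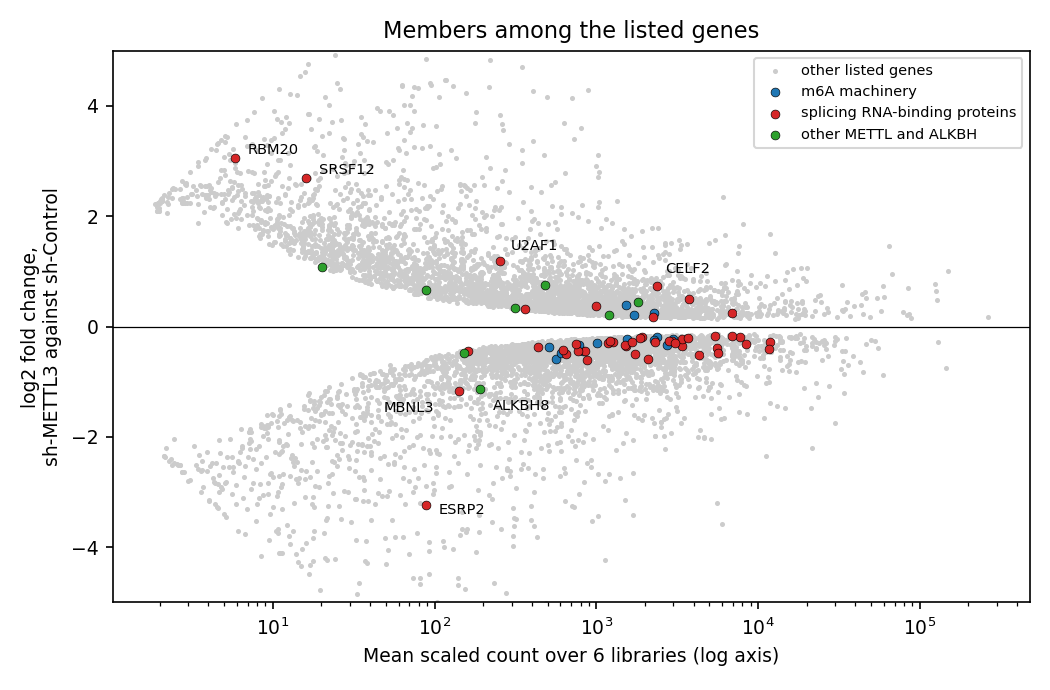
Mean scaled count over the 6 libraries (log x axis) against log2 fold change for the 7758 listed genes (42 genes beyond 5 log2 units are not drawn), with the members coloured by class. Most members lie at higher counts and small changes, with a median scaled count of 1529 against 582 for all listed genes, and the empty band around 0 reflects that the table holds called genes only.

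The members differed in chromosome and in the overlap of their exons with other genes. Of the 578 listed genes on chromosome 11, 76.3% were lower (median −0.56 on the log2 scale), against 49.3% of the listed genes elsewhere. The 8 members on chromosome 11 were ALKBH8, CELF1, HNRNPUL2, PRPF19, RBM4, RBM7, SF3B2 and SRSF8, of which 7 were lower (median −0.41). Without them, 41 of 59 members were lower and 16 higher, with a median of −0.27. Exonic bases are shared with another annotated gene in 33 members, by over 10% in 13. Leaving out these 13 gave 42 lower and 12 higher of 54, all passing. Both choices were made after the data had been seen.

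**Figure D5:**
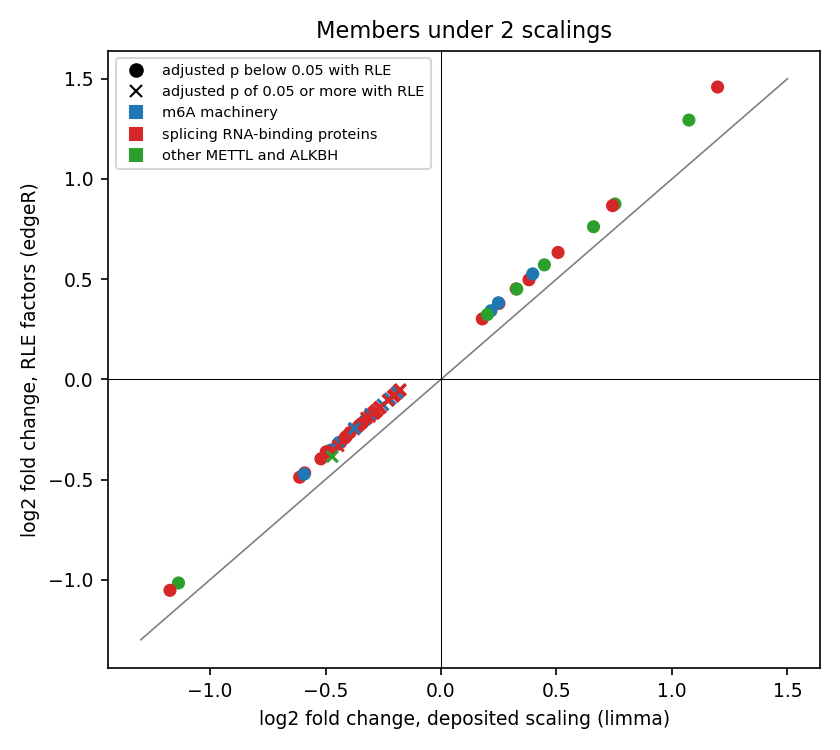
Log2 fold change of 64 members with the deposited scaling (x axis, limma) against that with RLE factors (y axis, edgeR), with crosses for members that did not pass with RLE and a line of equality; ESRP2, SRSF12 and RBM20 lie outside the axes. All points lie above the line, and the crosses sit mainly at small negative changes.

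Genes of the same pathways that the symbols do not select were read from fixed lists. Of 85 other spliceosome components, 41 were listed, 35 lower and 6 higher (median −0.32), and with RLE scaling 18 were lower and 6 higher. The spliceosomal helicase AQR (−1.23) and MFAP1 (−1.11) fell most, and SNRNP25 (0.73) and DDX41 (0.58) rose most. Of 53 other splicing regulators, 20 were listed, 14 lower and 6 higher (median −0.24), with 6 lower and 6 higher under RLE scaling. SRPK1, a kinase of SR proteins, was among the lower genes (−0.57, limma adjusted p = 5.33e-05) and LUC7L3 among the higher (0.44, limma adjusted p = 0.000224). Of 24 other m6A-linked factors, 12 were listed, 11 lower and 1 not passing (median −0.28), with 5 lower and 1 higher under RLE scaling. FMR1 (−0.42) and G3BP1 (−0.45), RNA-binding proteins linked to m6A, were lower, as was PRRC2C (−0.53), and AHCY, an enzyme of the methyl donor cycle, did not pass (0.18, limma adjusted p = 0.0503). The median of all listed genes was −0.21.

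The DNA before their start sites was searched for short motifs. RefSeq promoter windows on GRCh38.p14 matched 55 of the 67 members, and the 250 bases before the most upstream start were searched on both strands. The ETS core CGGAAG was found in 46.2% of 39 lower members and 20.0% of 15 higher members, against 24.9% of 5353 listed protein-coding genes and 16.7% of 27305 promoters. The CCAAT box (CCAAT) was in 38.2% of members, 33.4% of listed protein-coding genes and 33.0% of all promoters. The GC box (GGGCGG) was in 56.4% of members, 67.6% of listed protein-coding genes and 42.2% of all promoters. TGACGTCA, the cyclic AMP response element, was in 2 of 55 members (3.64%), 2.58% of listed protein-coding genes and 1.75% of all promoters. The E-box CACCTG was in 14.5%, 16.1% and 17.5% of the same sets. A match is only a match of letters, and these shares were not tested.

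Printed to show where such letters lie are 100 bases upstream of 4 lower members (METTL14, METTL16, SRSF7 and PRPF38A) and 2 higher members (RBM3 and RBM38), from RefSeq on GRCh38.p14, 5′ to 3′ on the strand of the gene. Capitals mark the motifs: an ETS core in METTL14, an E-box and a CCAAT box in METTL16, GC boxes in SRSF7, PRPF38A and RBM38, and a CCAAT box in RBM3, each on either strand. GC boxes and CCAAT boxes stand before both lower and higher members here.
METTL14, chr4:118685268-118685367, plus strand: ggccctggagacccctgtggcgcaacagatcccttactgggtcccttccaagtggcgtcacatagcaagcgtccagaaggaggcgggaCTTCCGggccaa
METTL16, chr17:2511892-2511991, minus strand: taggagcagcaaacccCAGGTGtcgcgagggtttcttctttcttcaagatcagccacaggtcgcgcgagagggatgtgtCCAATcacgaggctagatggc
SRSF7, chr2:38751495-38751594, minus strand: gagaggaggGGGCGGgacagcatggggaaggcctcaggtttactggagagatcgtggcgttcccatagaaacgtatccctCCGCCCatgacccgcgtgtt
PRPF38A, chr1:52404464-52404563, plus strand: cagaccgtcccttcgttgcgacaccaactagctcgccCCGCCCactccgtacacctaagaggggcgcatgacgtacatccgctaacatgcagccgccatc
RBM3, chrX:48574349-48574448, plus strand: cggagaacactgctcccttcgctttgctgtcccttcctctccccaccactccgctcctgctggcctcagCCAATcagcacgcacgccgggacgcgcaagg
RBM38, chr20:57391296-57391395, plus strand: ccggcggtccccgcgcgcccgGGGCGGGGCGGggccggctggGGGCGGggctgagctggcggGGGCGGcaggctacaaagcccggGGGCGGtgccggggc

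The letters GGACT, a common form of the sequence in which m6A is written, were counted in annotated transcripts. They occurred at a median of 0.870 per kb in the members, 0.839 in lower and 0.903 in higher members. In all listed protein-coding genes the median was 0.936, with 0.901 in lower and 0.984 in higher genes. No difference between these values was tested, and methylation itself was not measured in these libraries.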

How the data were processed

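RNA was extracted with Trizol from 3 sh-METTL3 and 3 sh-Control samples of ARPE-19 cells given LPS, and the submitters' processing notes name HISAT2 2.0.5 and hg38, while the methods of the study name Cufflinks with RefSeq mRNAs. The read counter, its annotation and its use of strand are not given in the sources used here, and the coordinates of all 7758 genes equal GENCODE 29. Per library the authors deposited a signal: reads per gene over a size factor. All values came out as whole reads within 0.01. The authors also deposited group means, log2 fold changes, p-values and adjusted p-values, of which only the p-values and adjusted p-values were used, for the number of tests (22977) and the selection of the table.

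Groups came from the sample titles. Log2(scaled count + 1) was fitted for all 7758 genes with limma 3.58.1 (R 4.3.3), with an intensity trend and no covariates, with Benjamini-Hochberg adjustment over 22977 tests, unlisted genes entering with a p of 1. The threshold was 0.05, and exact permutation of 3 against 3 libraries cannot go below 0.1. The 18 alternatives were edgeR 4.0.16 with RLE, TMM or deposited factors or listed-gene totals, DESeq2 1.42.0, limma-voom, limma without the trend, a pseudocount of 0.1, a mean of at least 50, adjustment over listed genes alone, a threshold of 0.01, a replicate block, and leaving out each library. RLE and TMM factors were estimated on the listed, selected genes. On simulated data with 7758 genes, limma recovered 99% of 200 genes changed by a log2 value of 1 and called 3 unchanged genes. Library depths are unknown, since the reads cover listed genes only.

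The members, classes and gene lists were chosen with earlier results of these data known. Single genes were named by a rule: every m6A writer, eraser and reader; in each other class the 2 largest rises and 2 largest falls that passed the test, given a mean scaled count of 100 or more; and every member with a log2 change of at least 1 in size. Further genes were named after their values were seen. Motifs were searched in RefSeq promoter windows with Python 3.11.15, and transcripts of U2AF1 and U2AF1L5 were compared with GENCODE 29 sequences.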

Additional observations from a re-analysis of the deposited data

How the results depend on the processing

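No member reversed under any alternative. The members called numbered 65, and 41 with RLE factors (m6A machinery 8, splicing proteins 26, other spliceosome components 24, other splicing regulators 12, other m6A-linked factors 6) or 43 at a threshold of 0.01 (other splicing regulators 13). Leaving out 1 library gave 46 to 59, the lowest without sh-Control replicate 1. Of all 7758 listed genes, 84.7% were called with RLE factors, 75.3% at 0.01 and 84.3% to 94.0% without 1 library. The call of METTL3 (log2 fold change −0.30, limma adjusted p = 0.032) was lost with RLE (−0.17) and TMM factors (−0.25) in edgeR, without the intensity trend (−0.30) and at 0.01 (−0.30), and its log2 fold change ranged from −0.38 to −0.18 over the fits without 1 library; the cause was not tested.

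Replicate numbers did not pair the libraries: deviations from the group means correlated at 0.0036, 0.019 and −0.015 for numbers 1, 2 and 3. With a replicate block 64 members were called (95.5%, against 96.4% of all listed genes; m6A machinery 13, splicing proteins 44), and METTL3 was −0.30 (limma adjusted p = 0.0178). Few reads limit SRSF12, RBM20, METTL7A and ESRP2.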
